A study of Mus musculus with 38 samples.

Results

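Metallothionein and zinc-handling genes were described across 38 mouse T cell libraries: the metallothioneins Mt1 and Mt2, the zinc-sensing transcription factor Mtf1, the zinc exporter Slc30a1 and the zinc importers Slc39a6 and Slc39a10. These 6 genes, of 31053 in the tables, were chosen for their response to dexamethasone (Dex) and their levels in vivo in these same libraries. Their values in every comparison are therefore a description, without a test. In vitro, 16 libraries came from Th17Inf cultures (T helper 17 cells made inflammatory in culture) of spleen and lymph node T cells from C57/B6 mice, WT or IL-23R KO, kept for 2 days with Dex or without it. IL-23R is the receptor for interleukin-23, and Dex is a synthetic glucocorticoid. These 4 groups of 4 libraries are called WT control, WT Dex, KO control and KO Dex. In vivo, 22 libraries came from 2D2 cells, T cells whose transgenic receptor recognises a myelin protein. They were taken naive from glucocorticoid receptor (GR) or CHD1 donors, turned into Th17Inf cells in culture, and transferred into WT recipients to give experimental autoimmune encephalomyelitis (EAE). Cells were sorted at the peak of disease from the central nervous system (CNS) as GR WT (n = 4), GR cKO (n = 4), CHD1 WT (n = 3) and CHD1 cKO (n = 4). From the draining lymph node (dLN) they were sorted as CHD1 WT (n = 3) and CHD1 cKO (n = 4). The labels name neither the Cre line behind the 2 conditional knockouts nor whether replicates were separate cultures or animals, so the errors measure the spread between libraries, which may be technical.

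Metallothioneins are small cysteine-rich proteins that bind zinc and copper. Free zinc is sensed by MTF1, which binds metal response elements in promoters and raises metallothionein and Slc30a1 transcription, and metallothionein genes are also long known as glucocorticoid-induced genes. SLC30 proteins (ZnT) move zinc out of the cytosol and SLC39 proteins (ZIP) move it in.

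The promoter windows of Mt1, Mt2 and Slc30a1 are shown because these are the members with metal response element cores among the 5 whose windows were searched. Slc39a6 was not searched. Each runs from 250 bases before to 50 bases after the RefSeq start site on the plus strand of GRCm38.p6 (mm10), 5′ to 3′, and the capitals mark every TGCACNC or TGCGCNC on either strand.
Mt1, chr8:94178839-94179138: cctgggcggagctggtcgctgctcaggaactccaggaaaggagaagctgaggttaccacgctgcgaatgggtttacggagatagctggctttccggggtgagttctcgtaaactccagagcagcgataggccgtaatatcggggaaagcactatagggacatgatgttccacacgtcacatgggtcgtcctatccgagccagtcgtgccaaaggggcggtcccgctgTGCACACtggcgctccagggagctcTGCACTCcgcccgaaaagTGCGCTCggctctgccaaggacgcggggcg
Mt2, chr8:94172368-94172667: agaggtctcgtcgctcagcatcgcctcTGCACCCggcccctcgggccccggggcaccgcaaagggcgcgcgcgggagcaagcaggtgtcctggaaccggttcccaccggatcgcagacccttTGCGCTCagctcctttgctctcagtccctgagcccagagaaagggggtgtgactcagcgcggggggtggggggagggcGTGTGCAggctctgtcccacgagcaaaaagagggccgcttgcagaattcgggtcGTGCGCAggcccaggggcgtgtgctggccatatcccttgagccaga
Slc30a1, chr1:191906531-191906830: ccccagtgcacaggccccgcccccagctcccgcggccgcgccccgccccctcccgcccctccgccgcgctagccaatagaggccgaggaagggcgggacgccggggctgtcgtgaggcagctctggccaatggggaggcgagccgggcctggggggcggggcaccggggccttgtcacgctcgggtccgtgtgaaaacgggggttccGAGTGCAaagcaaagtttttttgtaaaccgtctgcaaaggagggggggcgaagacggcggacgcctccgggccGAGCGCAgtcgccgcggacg
The Mt1 window held 3 cores, the Mt2 window 4 and the Slc30a1 window 2. Of 32851 promoter windows of this length, 25.7% held at least 1 core, 7.11% at least 2, 1.97% at least 3 and 0.517% at least 4. Neither the Mtf1 window nor the 2 windows of Slc39a10 held one. The full palindromic glucocorticoid response element, searched on both strands, was in 3 of all 32851 windows (0.00913%) and in no window of these 5 genes. So rare an element, sought no further than 250 bases before the start, says nothing about these genes by its absence. Its left part, AGAACA, was in 6233 of the 32851 windows and, among these 5 genes, in that of Mtf1. A match in letters is a description and not a binding site.

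Mt1 (chr8:94179082-94180327) and Mt2 (chr8:94172664-94173568) lie side by side on chromosome 8, 5513 bases apart. With Mt3 and Mt4 they form a cluster of 43131 bases. No stretch of 31 bases of a Mt1 transcript was shared with another gene, and 0.524% of those of Mt2 were, so reads of these 2 genes can be told apart. The other members lie on chromosome 4 (Mtf1, chr4:124802104-124849800), chromosome 1 (Slc30a1, chr1:191906767-191913247, and Slc39a10, chr1:46807544-46892852) and chromosome 18 (Slc39a6).

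Libraries held 3148634 to 9159671 counts, of which 13.1% to 59.7% fell on 16 repeat and ribosomal RNA features. Levels are therefore given as CPM, the share of the counts outside those features, scaled as CPM usually is, and levels of different genes are compared as CPM per kb of transcript. As a check of the labels, Nr3c1, the gene of GR, had 8.93 ± 0.643 CPM (SD, n = 4) in GR cKO and 22.3 ± 3.26 (n = 4) in GR WT cells, without overlap. Il23r had 5.41 ± 1.88 CPM in KO control and 8.98 ± 1.42 in WT control, so its transcript was still counted in the KO. Chd1 did not separate the groups: it had 6.75 ± 2.04 CPM in the CNS libraries labelled CHD1 cKO (n = 4) against 6.77 ± 0.655 in CHD1 WT (n = 3), and 7.74 ± 2.66 against 9.66 ± 0.573 in the dLN. Whether reads outside a deleted part account for this was not tested, and these libraries are called by their label. T cell markers were present in every group, but 10 of them summed to 3391 to 5404 CPM in vitro and 14636 to 51123 in vivo. Of 8 Th17 markers, 4 (Il17a, Il23r, Il22 and Il1r1) were at 0 in all CHD1 WT dLN libraries, where the summed Th17 level was 20.2 to 27.2 CPM. CNS libraries also carried microglia and macrophage transcripts, 3544 to 18249 CPM over 12 markers, against 79.7 to 210 CPM in the dLN.

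Mt1 was among the most abundant transcripts of the cultures and was highest in IL-23R KO cells with Dex. WT control libraries held 1372, 1190, 1501 and 1310 CPM and WT Dex libraries 1967, 1809, 1630 and 1774 CPM. KO control libraries held 1078, 885, 1059 and 982 CPM, and KO Dex libraries 3828, 4204, 4219 and 4352 CPM. All 4 KO Dex libraries were above every other library, and all 4 KO control libraries were below every other one. Per kb of transcript, Mt1 ranked 95 of 10714 genes in WT control, 78 in WT Dex, 112 in KO control and 29 in KO Dex.

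The fold change of Mt1 with Dex, from edgeR with TMM scaling, was 0.44 ± 0.08 (log2, SE) in WT cells, or 1.36-fold, and 2.21 ± 0.09 in KO cells, or 4.62-fold. The difference between these responses was 1.77 ± 0.12 on the log2 scale. Without Dex, Mt1 was lower in KO than in WT cells by a log2 value of -0.46 ± 0.08. The ratio of mean CPM in KO cells, without TMM scaling, was 4.15.

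Mt2 followed Mt1 at a lower level. Its WT control libraries held 448, 483, 534 and 524 CPM, its WT Dex libraries 788, 697, 527 and 649, its KO control libraries 461, 341, 375 and 342, and its KO Dex libraries 1718, 1701, 1880 and 1919. The KO Dex libraries were again above all others, while WT Dex and WT control overlapped in 1 library, WT Dex replicate 3. With Dex, Mt2 moved by a log2 value of 0.44 ± 0.12 in WT cells and of 2.40 ± 0.12 in KO cells, which differ by 1.96 ± 0.17. Across the 16 libraries, which share their groups, Mt1 and Mt2 had a Pearson correlation of 0.99 in log2 CPM.

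Mtf1, which encodes the zinc sensor, went the other way in KO cells. It had 15.7 ± 2.82 CPM in WT control, 12.7 ± 4.60 in WT Dex, 16.1 ± 2.18 in KO control and 7.25 ± 3.20 in KO Dex (SD, n = 4 each). Of the KO Dex libraries 3 held 3.23, 6.94 and 7.85 CPM and replicate 7 had 32 counts, all below the KO control libraries at 13.6 to 18.03 CPM. Replicate 7 lay above 2 of the WT Dex libraries. The WT groups overlapped, with WT Dex replicate 2 at 19.6 CPM and the other 3 at 9.86 to 11.2. Its log2 value with Dex was -0.98 ± 0.28 for KO and -0.29 ± 0.25 for WT cells, which differ by -0.69 ± 0.37. These values rest on 9 to 32 counts in each KO Dex library.

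**Figure D1:**
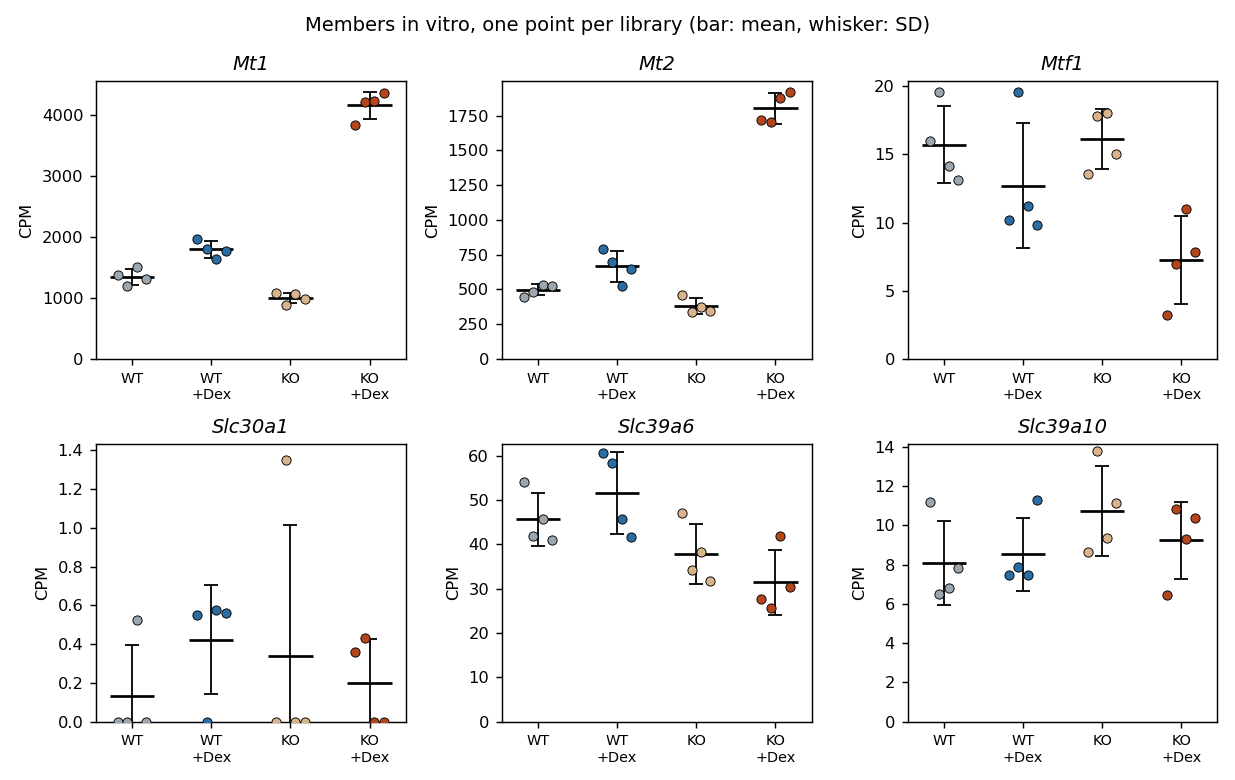
CPM of the 6 members in each in vitro library, by genotype and Dex, on linear axes starting at 0, with the mean (bar) and SD (whisker) of 4 libraries. Mt1 and Mt2 are highest in the KO Dex libraries and Mtf1 has its lowest group mean there, overlapping with WT Dex, while the 2 importers overlap between Dex and control.

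Slc30a1, which exports zinc across the plasma membrane, was barely counted. It had 0 to 5 counts in each in vitro library and 0 to 7 in each in vivo library, too few for any fit. The 9 in vitro libraries at 0 allow up to 0.778 to 1.08 CPM by counting error, so a response to Dex was not detectable at this depth.

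Of the importers, Slc39a6 had 45.7 ± 5.96 CPM in WT control, 51.6 ± 9.29 in WT Dex, 37.8 ± 6.76 in KO control and 31.4 ± 7.30 in KO Dex. The Dex and control libraries overlapped in both genotypes, with log2 values for Dex of 0.20 ± 0.16 (WT) and -0.10 ± 0.18 (KO). Slc39a10 had 8.08 ± 2.14, 8.52 ± 1.84, 10.7 ± 2.28 and 9.24 ± 1.96 CPM in the same order, with log2 fold changes of 0.10 ± 0.22 and -0.07 ± 0.22. The per-library ranges of both importers therefore do not set the Dex cultures apart from their controls.

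With Dex in WT cells, 1 of the 6 members (Mt1) did not overlap between groups, where 16.1% of 10813 genes tested did not. In KO cells 3 did not (Mt1, Mt2 and Mtf1), where 48.6% of genes did not. Between KO and WT control it was 1 (Mt1), where 6.06% did not. The members were chosen on these contrasts, and nothing is read from the counts. KO Dex libraries also stood apart in makeup: between 30.5% and 37.5% of their counts fell on repeats and ribosomal RNA, against 13.5% to 25.4% in the other 12, and mitochondrially encoded genes 0.522% to 0.716% of the rest against 1.96% to 2.86%. With the repeat and ribosomal features left out of the fit, the Mt1 response in KO cells was 2.20 and that of Mt2 was 2.40. Summed marker levels differed as well: 10 T cell markers had 3391 to 3770 CPM in KO Dex and 4531 to 5404 in the other in vitro libraries. For 12 macrophage markers it was 124 to 146 against 60.8 to 87.5, and for 8 astrocyte markers 397 to 444 against 201 to 360. The 8 Th17 markers, Il23r among them, instead separated the genotypes. They summed to 131 to 447 CPM in WT control and 199 to 616 in WT Dex. In KO control they summed to 42.9 to 65.0 CPM and in KO Dex to 55.3 to 70.7. The macrophage genes Lyz2, C1qb, C1qc and Csf1r and the astrocyte genes Gfap, Aqp4 and S100b were at 0 in every KO Dex library. The part of the mitochondrial share and of these markers in the Mt1, Mt2 and Mtf1 values was not tested. The GR target Tsc22d3 followed the same order as Mt1 under Dex, with 32.1 ± 4.54 CPM in WT control, 93.7 ± 22.1 in WT Dex, 30.8 ± 10.1 in KO control and 261 ± 6.60 in KO Dex. Fkbp5, another GR target, did not: it had 5.85 ± 1.21, 12.0 ± 1.81, 8.43 ± 0.955 and 9.16 ± 1.09 CPM in these groups, and its Dex response was smaller in KO than in WT cells (log2 difference -0.78 ± 0.25, edgeR adjusted p = 0.0239). In vivo the group means of Tsc22d3 and Mt1 mostly went opposite ways. Tsc22d3 had 101 ± 17.8 CPM in GR cKO and 221 ± 45.5 in GR WT cells, where mean Mt1 was higher in the cKO. In the dLN it had 401 ± 103 in CHD1 cKO and 171 ± 43.0 in CHD1 WT, where Mt1 was lower in the cKO. In the CNS both were higher on average in CHD1 cKO, with Tsc22d3 at 158 ± 35.2 against 122 ± 34.4.

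Zinc and copper genes outside the members were taken from 5 lists of 35 genes in the tables, and were tested. The lists were chosen with earlier results of these data known, so the tests and shares below are not independent of that choice. With Dex in WT cells 4 of 26 tested rose and 1 fell by edgeR's quasi-likelihood test, which is 19.2% against 8.08% of all genes. Slc39a8, an importer of zinc and manganese, rose by a log2 value of 0.91 ± 0.17 (adjusted p = 0.00268). Slc39a14 (0.85 ± 0.23, adjusted p = 0.0332) is a related importer that also carries iron. The others were Ndrg1 (0.64 ± 0.15), Selenow (0.32 ± 0.09) and, lower, the plasma membrane importer Slc39a1 (-0.30 ± 0.08). The count of 5 fell to 1 without WT control replicate 2, to 2 without WT control replicate 1 or WT Dex replicate 3, and to 3 without WT control replicate 4 or WT Dex replicate 1 or 4. It was 3 with no filter on low counts. Slc39a8 passed in each of these fits. The Slc39a1 call was lost with no filter (adjusted p = 0.103), and without any 1 of WT control replicates 1 to 3 or WT Dex replicates 1 to 3 (0.0514 to 0.0778). Slc39a14 and Selenow were each lost in several of these fits, and Ndrg1 without WT control replicate 2 (0.0513 to 0.117 over the 3 genes and all such fits).

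In KO cells with Dex 8 of the 26 rose and 6 fell, 53.8% against 54.7% of all genes, a share near the background. The median log2 fold change of the 26 was -0.12, beside 0.01 for all genes. Among 4 tested genes reported as MTF1 targets, Ndrg1, a stress-responsive gene, rose by 3.03 ± 0.16 (adjusted p = 2.76e-10) and Selenow, a selenoprotein, by 1.17 ± 0.09, and Csrp1 by 0.41 ± 0.11. Selenoh fell by 1.24 on the log2 scale (SE 0.14, adjusted p = 1.39e-06). Ndrg1 had 142 ± 33.4 CPM in KO control and 1039 ± 89.3 in KO Dex.

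Of 7 copper genes tested in KO cells with Dex 3 rose and 2 fell, 71.4% against 54.7% of all genes, with a median log2 value of -0.11. Atp7a, a copper exporter, had 1.72 ± 0.359 CPM in KO control and 9.53 ± 1.22 in KO Dex, a log2 change of 2.61 ± 0.30 (edgeR adjusted p = 1.79e-06), and its relative Atp7b changed by 1.36 ± 0.28. Slc31a2, a copper transporter of internal membranes, rose by 0.83 ± 0.26 (adjusted p = 0.0118, and 0.0508 without KO Dex replicate 6). Commd1 and Ccs, the copper chaperone of superoxide dismutase, fell by 0.74 and 0.46. The copper importer Slc31a1 (-0.11 ± 0.11, adjusted p = 0.483) and the chaperone Atox1 (-0.26 ± 0.11, adjusted p = 0.0525) did not pass. Slc39a8 (1.59 ± 0.18) and Slc39a14 (1.20 ± 0.24) rose among the importers, and Slc39a1 (-0.32 ± 0.08) and Slc39a11 (-0.59 ± 0.17) fell. Of the exporters, Slc30a6 fell by 0.63 (SE 0.21, adjusted p = 0.0187), a call lost without KO control replicate 5 (0.0611) or 6 (0.0509) or KO Dex replicate 5 (0.0585).

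The response differed between genotypes for 8 of the 26, 30.8% against 32.2% of all genes. It was more positive in KO cells for Ndrg1 (2.39 ± 0.22), Atp7a (2.38 ± 0.44), Atp7b (1.12 ± 0.41), Selenow (0.85 ± 0.13) and Slc39a8 (0.69 ± 0.25), and more negative for Selenoh (-1.01 ± 0.19), Ccs (-0.78 ± 0.19) and Slc39a11 (-0.74 ± 0.23). The edgeR adjusted p was 0.0448 for Slc39a8 and 0.0493 for Atp7b. Both were lost in most fits that left out 1 library, with adjusted p up to 0.106 and 0.162, and with DESeq2 (0.114 and 0.159). For Slc39a11 DESeq2 gave 0.0635. Mt3, the metallothionein known from the brain, was counted at 6 to 58 in each in vitro library and did not pass in either genotype (log2 fold change -0.34 ± 0.45 in WT and -0.43 ± 0.44 in KO cells). Between KO and WT control, where 0.684% of genes were called, none of the 26 passed and 3 were under an unadjusted p of 0.05. Mt4, Slc30a8, Slc30a10, Slc39a2, Slc39a5 and Slc39a12 stayed under the filter in all tables.

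**Figure D2:**
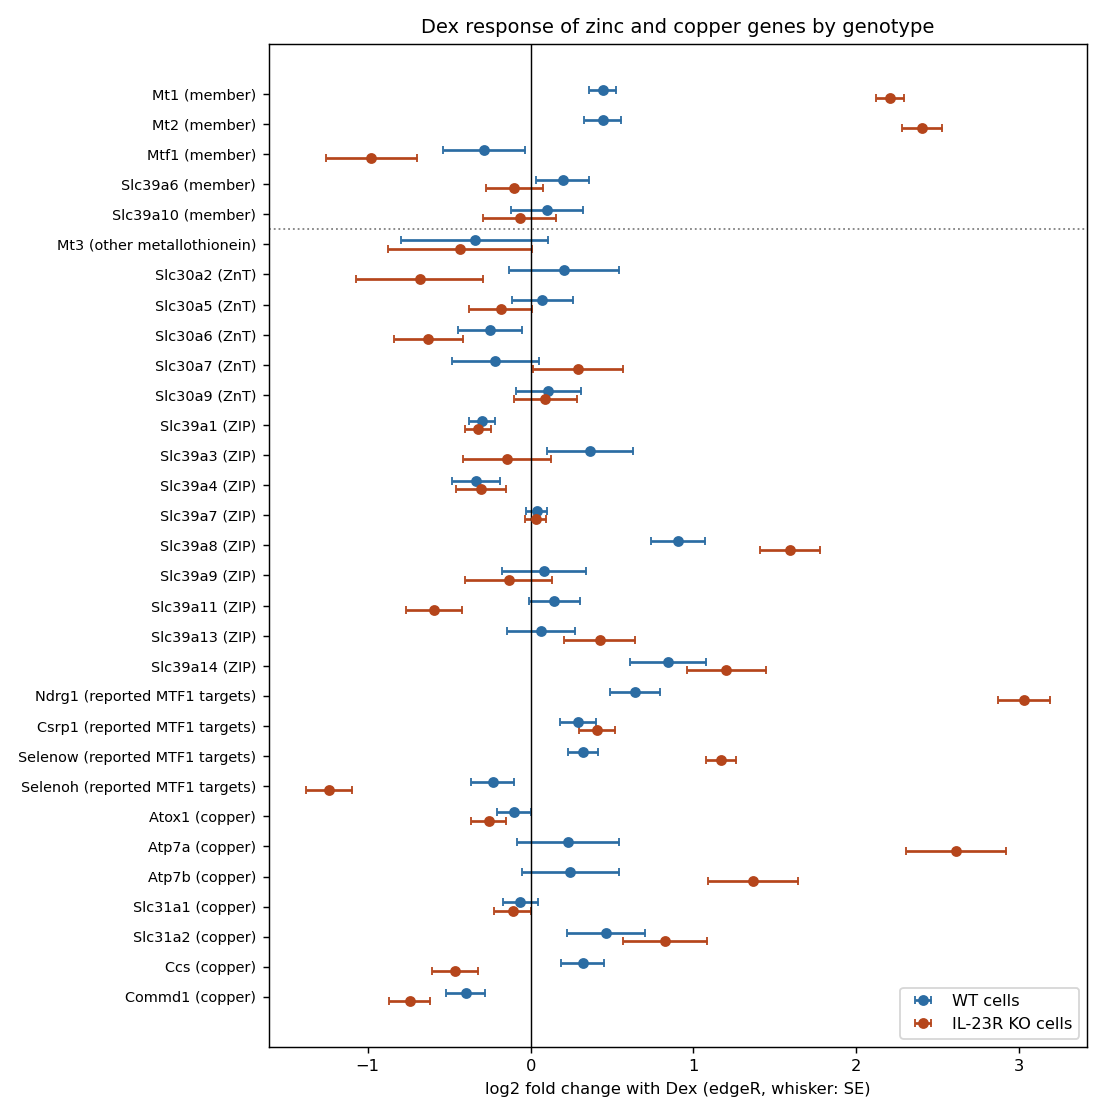
Log2 fold change with Dex (edgeR, whiskers SE) in WT and IL-23R KO cells for the 5 fitted members, above the dotted line, and the 26 tested list genes below it. Mt1, Mt2, Ndrg1 and Atp7a lie past 2 in KO cells and under 0.7 in WT cells.

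Genes whose levels followed the members most closely over the 16 libraries were taken by Pearson correlation in log2 CPM among 6799 candidates. For Mt1 these were Supt4a (0.99), which encodes a transcription elongation factor, the nuclear RNA Neat1 (0.99) and Mxd1 (0.98), and for Mt2 Supt4a (0.99), the splicing factor Srsf2 (0.99) and Tiparp (0.98). For Mtf1 they were Prps1l3 (0.93), Elf1 (0.89) and Mvk (0.88). The importers had weaker neighbours, Gatm (0.83) for Slc39a6 and Ppp1r15b (0.78) for Slc39a10. The 16 libraries share their groups, so these correlations include the differences between groups. Neat1 had a mean of 175 CPM in KO Dex and 53.6 to 78.3 in the other in vitro groups, and Mxd1 111 and 19.1 to 38.4. The nearest protein-coding genes to the metallothionein cluster, looked at for their position after values were seen, are Bbs2 and Nup93. Nup93 fell in KO cells with Dex by 1.31 on the log2 scale (SE 0.22, edgeR adjusted p = 7.86e-05). Bbs2 did not pass (0.97 ± 0.46, adjusted p = 0.0875).

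In vivo the metallothioneins were far lower in CPM than in the cultures. This difference cannot be told apart from the table. The 10 T cell markers also differed, at 3391 to 5404 CPM in vitro and 14636 to 51123 in vivo, and their part was not tested. Mt1 had 85.8 ± 38.8 CPM in GR WT and 132 ± 30.9 in GR cKO cells of the CNS (n = 4 each). It had 144 CPM, with single libraries at 86.7, 168 and 178, in CHD1 WT (n = 3) and 175 ± 30.3 in the libraries labelled CHD1 cKO (n = 4) of the CNS, and 159 ± 48.5 (n = 3) and 39.3 ± 38.3 (n = 4) in the dLN. In order, the group means ran from CHD1 cKO dLN through GR WT, GR cKO, CHD1 WT CNS and CHD1 WT dLN to CHD1 cKO CNS, and the last 4 of these lay within 1 SD of their neighbours. Mt2 was between 7.30 ± 4.13 and 28.8 ± 11.9 CPM in the 6 groups. The ratio of Mt1 to Mt2 counts was 2.71 ± 0.282 in WT control, 2.73 ± 0.260 in WT Dex, 2.66 ± 0.246 in KO control and 2.30 ± 0.114 in KO Dex, and 5.15 to 17.7 as group means in vivo. Single in vivo libraries ran from 1.20, on 20 Mt2 counts in CHD1 cKO dLN replicate 2, to 29.6. Bulk values cannot tell fewer cells expressing a gene from less RNA per cell.

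**Figure D3:**
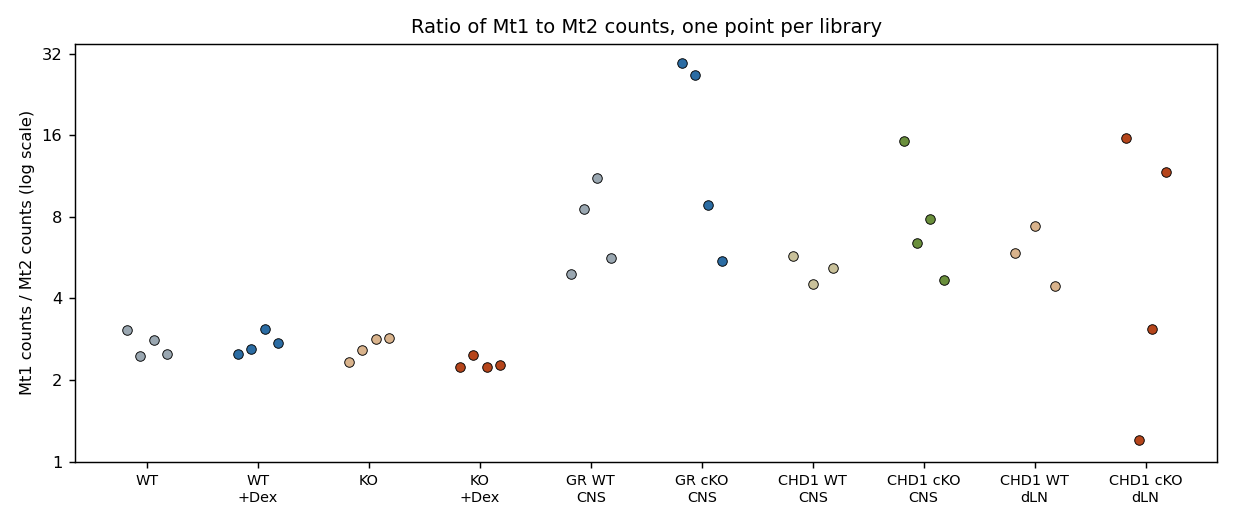
Ratio of Mt1 to Mt2 counts in each library, on a log scale, by group. The in vitro libraries lie between 2.23 and 3.09 and most in vivo libraries lie above them.

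Between GR cKO and GR WT cells of the CNS, 0.0% of 11148 genes were called by edgeR, 1226 were under an unadjusted p of 0.05 and DESeq2 called 122. Mt1 libraries held 36.8, 132, 87.6 and 87.2 CPM in GR WT and 169, 112, 144 and 101 in GR cKO cells, which overlapped. The log2 difference was 0.66 ± 0.31 (SE). Mt2 held 7.49, 15.4, 7.84 and 15.4 CPM against 5.72, 4.20, 16.3 and 18.4, with a difference of -0.04 ± 0.45. The log2 difference was -0.14 ± 0.16 for Mtf1, -0.29 ± 0.15 for Slc39a6 and -0.41 ± 0.21 for Slc39a10, and 0 of 6 members were without overlap, where 7.02% of genes were. In the same replicate order, macrophage markers summed to 3544, 14944, 10470 and 5526 CPM in GR WT libraries. In GR cKO libraries they summed to 18249, 10152, 15599 and 8548 CPM. The library with the lowest sum had the least Mt1 and the library with the highest sum the most. The part of macrophage RNA in these values was not tested. None of 27 list genes passed, and 3 were under an unadjusted p of 0.05. Nr3c1, the gene of GR, did not pass either (log2 -1.30 ± 0.16, edgeR adjusted p = 0.113), so the lack of calls here says little.

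In the CNS, Mt1 and Mt2 of the libraries labelled CHD1 cKO overlapped with CHD1 WT. The log2 difference was 0.27 ± 0.26 (SE) for Mt1 and -0.17 ± 0.45 for Mt2. Slc39a6, an importer of the plasma membrane, held 34.3, 27.3, 31.3 and 47.9 CPM in the cKO and 23.6, 25.1 and 25.7 in the WT libraries. The 4 cKO libraries were above all 3 WT ones, as 12.6% of genes were without overlap, and the log2 difference was 0.49 ± 0.22. In this comparison 0.00896% of genes were called. Mtf1 had 0.03 ± 0.16 and Slc39a10 -0.25 ± 0.43. None of 27 list genes passed edgeR's test, and 3 were under an unadjusted p of 0.05. The 6 dendritic cell markers summed to 51.0 to 89.0 CPM in the cKO and 18.3 to 27.9 in the WT libraries. The 6 B cell markers summed to 97.4 to 150 and 53.9 to 81.7, and macrophage markers, which overlapped, to 4492 to 10238 and 4813 to 6381. The part of other cells in the Slc39a6 value was not tested.

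In the dLN both metallothioneins were lower in each of the 4 libraries labelled CHD1 cKO than in each of the 3 CHD1 WT libraries. Mt1 held 19.6, 12.3, 29.5 and 95.8 CPM in the cKO and 169, 201 and 106 CPM in the WT libraries. The cKO libraries were all below the WT ones, and replicate 4 lay close to them. The log2 difference was -2.01 ± 0.54, and without cKO replicate 4 it was -2.92. Mt2 held 1.25, 10.3, 9.52 and 8.18 CPM in the cKO and 28.6, 27.3 and 23.9 CPM in the WT libraries, again without overlap, on 3 to 21 counts in each cKO library. Its log2 difference was -1.88 ± 0.42, and between -2.07 and -1.51 with any 1 library left out. Of the 6 members 2 were without overlap, where 16.7% of genes were, and 0.0714% of 9803 genes were called, a count of 7 that became 990 without cKO replicate 4. Mtf1 had -0.06 ± 0.23, Slc39a6 -0.22 ± 0.23 and Slc39a10 -0.27 ± 0.26. Mt3, from the lists, had -1.35 ± 0.49 and did not pass (edgeR adjusted p = 0.172). None of 24 list genes passed, and 3 were under an unadjusted p of 0.05.

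The same dLN libraries differed in CD8 T cell transcripts. Cd8a and Cd8b1 together had 411, 1039, 808 and 218 CPM in the 4 cKO libraries, in replicate order, and 24.6 to 39.9 CPM in the WT libraries. The 10 T cell markers summed to 14636 to 31767 CPM in the cKO and 38397 to 42574 in the WT libraries, and the 6 B cell markers to 266 to 537 and 171 to 319. Replicate 4, with the least CD8 transcript of the cKO libraries, had the most Mt1. Replicate 3, however, had more CD8 transcript than replicate 1 and also more Mt1 (29.5 against 19.6 CPM). Neutrophil markers, 5 in all, summed to 94.3 CPM in cKO replicate 4 and to 0 to 2.05 in the other cKO libraries. In the WT libraries they summed to 101, 9.83 and 3.75 CPM. For Mt2, replicates 1 to 4 held 3, 20, 21 and 17 counts, which differ too little between replicates 2 to 4 to rank them. The part of other cells in the Mt1 and Mt2 values was not tested.

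**Figure D4:**
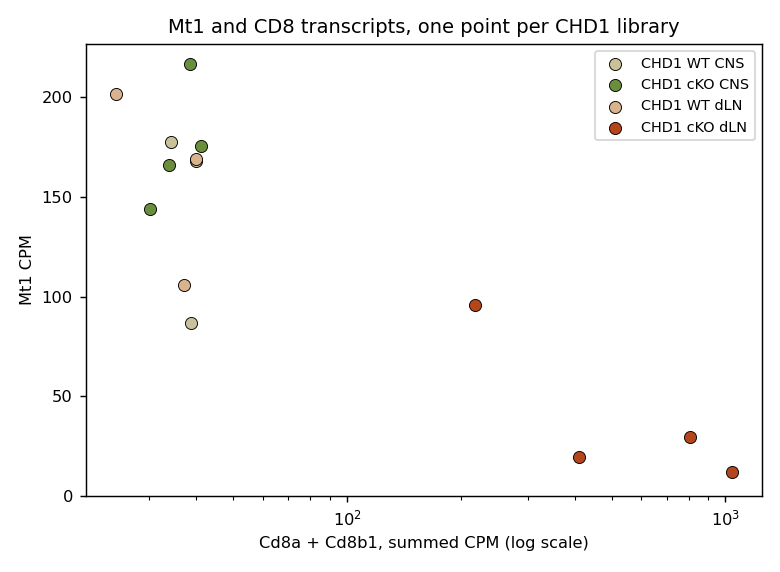
Mt1 CPM against the summed CPM of Cd8a and Cd8b1 (log axis) in the 14 CHD1 libraries, 1 point each. The 4 dLN libraries labelled CHD1 cKO lie to the right at 218 to 1039 CPM of CD8 transcript and 12.3 to 95.8 CPM of Mt1, and the other 10 at 24.6 to 41.1 CPM of CD8 transcript.

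Between tissues, the log2 difference of CNS over dLN, averaged over the 2 genotypes, was 1.17 ± 0.34 for Mt1 and 1.13 ± 0.35 for Mt2. Within CHD1 WT cells Mt1 had 144 CPM in the CNS and 159 in the dLN, and Mt2 28.8 and 26.6. In the libraries labelled CHD1 cKO, Mt1 had 175 and 39.3 CPM and Mt2 25.5 and 7.30. The averaged differences therefore rest mostly on the cKO libraries. Tissue cannot be told apart from the table here. The comparison of the CHD1 difference between tissues, added after the Mt1 and Mt2 counts were seen, gave 2.27 ± 0.67 for Mt1 and 1.70 ± 0.71 for Mt2 as a description. Without dLN cKO replicate 4 the Mt1 value was 3.18.

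Of the lists, 7 of 26 genes were higher and 2 lower in the CNS, 34.6% against 45.4% of all genes. Of 6 copper genes 4 were higher, 66.7%, with Slc31a2 at 2.20 ± 0.20 (edgeR adjusted p = 5.84e-07), the copper importer Slc31a1 at 1.46 ± 0.16, the copper chaperone Atox1 at 1.22 ± 0.09 and Commd1 at 1.00 ± 0.16. Atp7a (0.50 ± 0.29) and Ccs (0.24 ± 0.13) did not pass. Ndrg1 (1.68 ± 0.33), Slc39a1 (1.14 ± 0.15) and Slc39a4 (0.67 ± 0.14) were also higher. Slc30a5 (-0.49 ± 0.15) and Slc39a11 (-0.34 ± 0.13, adjusted p = 0.0475) were lower, the latter call being lost with DESeq2 (0.126) and in 11 of 14 fits without 1 library. These differences stand beside macrophage markers of 4492 to 10238 CPM in the CHD1 CNS libraries and 79.7 to 210 in the dLN, whose part was not tested.

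The other members varied little in vivo. Mtf1 lay between 14.5 ± 1.73 and 18.6 ± 0.961 CPM as group means, Slc39a6 between 23.9 ± 5.98 and 35.2 ± 8.96, and Slc39a10 between 7.08 ± 1.18 and 10.1 ± 2.03. Their log2 differences between tissues were 0.16 ± 0.13, 0.35 ± 0.16 and -0.03 ± 0.27.

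**Figure D5:**
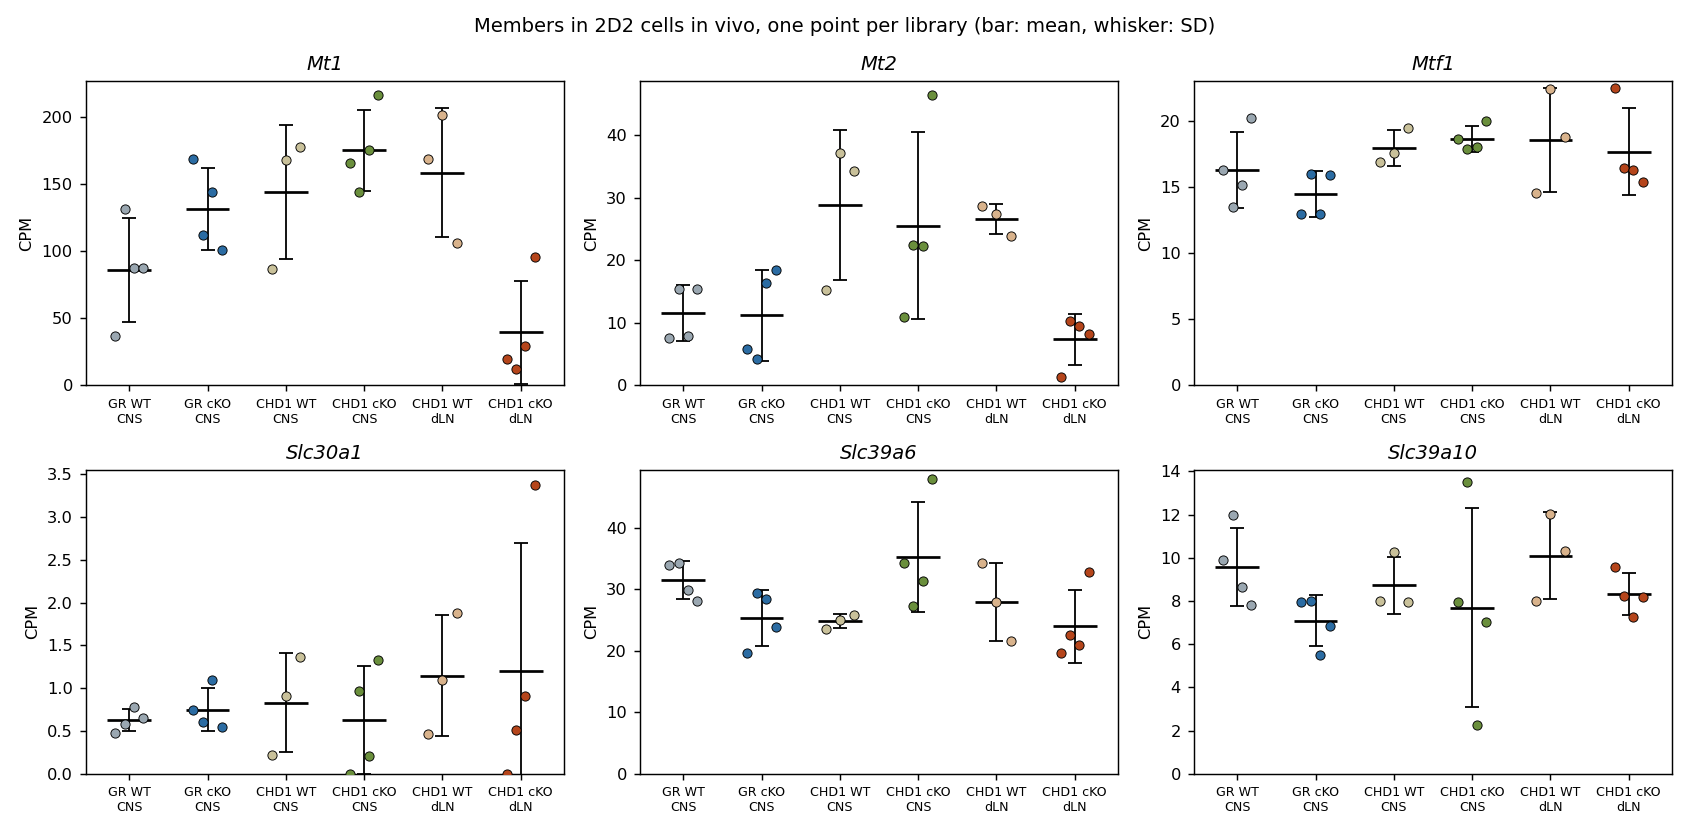
CPM of the 6 members in each in vivo library, by table, genotype and tissue, on linear axes starting at 0, with the mean (bar) and SD (whisker) of 3 or 4 libraries. Mt1 and Mt2 have their lowest group means in the dLN libraries labelled CHD1 cKO, which overlap with single CNS libraries, and Slc39a6 is above CHD1 WT in all 4 CNS libraries labelled CHD1 cKO.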

How the data were processed

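RNA was sequenced from 2000 sorted cells a library, with 12 amplification cycles and no molecular identifiers named, per the labels' protocols. The authors deposited 4 tables of expected counts (estimated counts) made with RSEM 1.3.3 on mm10, per the submitters' processing notes. They hold whole numbers. How reads were aligned, which gene annotation served and how values became whole numbers is not given in the sources used here.

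Groups came from the labels. With R 4.3.3, edgeR 4.0.16 kept genes by filterByExpr (minimum count 10, minimum total 15), scaled libraries with TMM and ran the quasi-likelihood F test, with Benjamini-Hochberg adjusted p under 0.05 called. One fit took the 16 in vitro libraries, one each the GR, CHD1 CNS and CHD1 dLN tables, and one the joined CHD1 tables. Levels are CPM outside 16 repeat and ribosomal RNA features, per kb of the longest principal GENCODE M21 transcript where genes are compared. A count of 0 was limited at 3 counts, covering counting error only. Log2 CPM for correlations had a prior count of 2. All members were named, and up to 4 called genes per list and comparison. The members and lists were chosen with earlier results of these data known. Because the choice of members used their Dex responses and their levels in vivo, no p-value is given for a member, although tests of the genotype differences in vivo had been planned. The code was tested on simulated data. Alternatives were DESeq2 1.42.0, its size factors in edgeR, no filter, a replicate block, leaving out each library and, chosen after seeing the data, leaving out the repeat features.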

Additional observations from a re-analysis of the deposited data

Results flagged for a closer look

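In groups of 4, 6 member values lay apart from the other 3 by the Dixon criterion, among 48 groups checked, and chance flags about 1 in 20. Mtf1 had 19.6 CPM in WT Dex replicate 2 (others 9.86 to 11.2) and 22.5 CPM in CHD1 cKO dLN replicate 1 (others 15.4 to 16.4). Slc39a10 had 11.3 CPM in WT Dex replicate 4 (others 7.46 to 7.88). Slc30a1, with at most 5 counts in these libraries, had 0.524 CPM in WT control replicate 3 (others 0), 0 CPM in WT Dex replicate 2 (others 0.553 to 0.574) and 1.35 CPM in KO control replicate 6 (others 0).

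The Dex response differed between KO and WT cells by the interaction term for 8 of 26 list genes tested, 30.8% against 32.2% of all genes, a share near the background. The log2 difference was 0.69 for Slc39a8, -0.74 for Slc39a11, 2.39 for Ndrg1, 0.85 for Selenow, -1.01 for Selenoh, 2.38 for Atp7a, 1.12 for Atp7b and -0.78 for Ccs. The calls of Slc39a8, Atp7b and Slc39a11 were lost with DESeq2. Those of Slc39a8 and Atp7b were also lost in most fits that left out a library.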

How the results depend on the processing

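Counts of genes called moved by more than 1.5 times as follows. DESeq2 called 122 genes between KO and WT control (74 by edgeR), 122 for GR (0), 178 for CHD1 in the CNS (1), 385 in the dLN (7) and 586 for genotype by tissue (13). Without a filter on low counts the counts were 4 for GR, 72, 511 and 172 for these CHD1 comparisons. DESeq2 size factors in edgeR gave 7 for genotype by tissue. With a replicate block they were 3 in the CNS, 613 in the dLN and 52 for genotype by tissue. In the dLN under that block, Mt1 gave -2.91 and Mt2 -2.03. Whether the replicate numbers pair the libraries is not given by the labels. Correlations of same-numbered deviations ran from -0.08 to 0.11, and not every one was over 0.1 in any pairing. With groups of 3 or 4 libraries, such values cannot exclude a pairing. The pairs that correlated best with their own number were 2 of 3 in the CNS, 1 of 3 in the dLN, 3 of 4 in vitro in WT, 1 of 4 in vitro in KO, and 2 of 3 (WT) and 2 of 4 (cKO) across tissues. GR and KO against WT control share no numbers. In the dLN, Mt1 gave -2.02 both without a filter and with DESeq2, and Mt2 -1.89.

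Leaving out each library gave 531 to 950 genes for Dex in WT, 5421 to 5999 for Dex in KO, 3077 to 3643 for the interaction, 26 to 77 for KO against WT control, 0 to 2 for GR, 0 to 2 for CHD1 in the CNS, 0 to 990 in the dLN, 4739 to 5491 for tissue and 0 to 648 for genotype by tissue. The low ends in WT were without WT control replicate 2 (531) and WT Dex replicate 3 (571). Between KO and WT control, the count was 26 without KO control replicate 8, 34 without replicate 6, and 45 without WT control replicate 1 or 4. Both high ends in the dLN and for genotype by tissue were without dLN cKO replicate 4.

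Directions changed under the replicate block for Mtf1 in the CNS (-0.024) and dLN (0.0081) and for Slc39a10 by genotype and tissue (-0.11). Leaving out 1 library turned the sign of values near 0. For GR these were Mt2 (-0.36 to 0.24). In the CHD1 CNS table they were Mt2 (-0.66 to 0.077), Mtf1 (-0.023 to 0.084) and Slc39a10 (-0.62 to 0.043), in the dLN Mtf1 (-0.22 to 0.10), and for genotype by tissue Mtf1 (-0.065 to 0.24) and Slc39a10 (-0.35 to 0.30). The causes were not tested.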
